A study of Saccharomyces cerevisiae with 9 samples.

Results

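Histidine biosynthesis in Saccharomyces cerevisiae is carried out by the products of 7 HIS genes, and GCN4 encodes the transcription factor that raises their expression when amino acids run short. The 8 genes were represented by the 9 probe sets that the platform annotation assigned to exactly 1 of them, out of 9335 probe sets on each Affymetrix Yeast S98 array. HIS3 had 2 probe sets, called here the brighter and the dimmer set, and each other gene had 1. All 9 were tested, with no filter on low signals, among 9275 probe sets.

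cRNA prepared from total RNA was hybridised to 9 arrays, 3 from each of 3 groups. The commercial group was a commercial dry active yeast, of which the sources used here give neither strain, growth nor drying. The dried group was strain BY4743 that had been grown at 30 °C to an A600 of 0.8, dried for 42 h and then held at 20% relative humidity for 72 h. The control group was BY4743 sampled after growth in rich glucose medium at 30 °C to an A600 of 0.8 and resuspension in diluted medium. BY4743, a laboratory diploid related to S288C, carries disrupted HIS3, LEU2 and URA3 on both chromosome sets, and LYS2 and MET17 each on 1, so both BY4743 groups share these alleles. It therefore needs histidine from the medium, while the other HIS genes are intact. Drying and elapsed time cannot be told apart, as no undried cells of the same age were analysed here. Whether arrays stem from separate cultures was not stated. The p-values therefore describe only how far these arrays scatter, and that scatter may be technical.

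The pathway begins with ATP and phosphoribosyl pyrophosphate (PRPP), which HIS1 joins in the step that histidine inhibits. HIS4, a single protein with several activities, catalyses the next steps and also the last ones, and HIS6, HIS7, HIS3, HIS5 and HIS2 act in that order between them. The HIS7 step releases the purine intermediate AICAR, which ties histidine synthesis to adenine synthesis, and Bas1 with Pho2 activates genes of both pathways. GCN4 is regulated largely at translation, through short upstream reading frames, so the level of its messenger does not give the level of its protein.

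Signals are deposited intensities after quantile normalization, in array units. The background of an array, set from control probe sets without a target, lay between 32.2 and 59.5, and between 72.1% and 81.3% of the tested probe sets were above it. Changes are differences between group means of log2 signals, called at a Benjamini-Hochberg adjusted p under 0.05 over all tested probe sets. Means printed as signals are arithmetic, so their ratios can differ from the folds given. Errors after ± are SD over 3 arrays. URA3, which BY4743 lacks, read 365 ± 36.3 in commercial yeast and lay under background on all arrays of dried and control BY4743. LEU2, disrupted likewise, read 382 ± 54.3 in commercial yeast, lay under background on all dried arrays, and read 84.5 ± 11.4 in control BY4743, above background on all 3 arrays. All 5 marker loci of BY4743 (HIS3 by its brighter set) were called lower in dried than in control BY4743, although both groups were under background for URA3. All 5 were higher in commercial yeast than in dried BY4743, and 3 were higher and 2 lower than in the control. With arrays scaled to the spike-ins, 3 were called higher than in dried BY4743 and 1 than in the control, and only 1 was lower than in the control with values as deposited or without control replicate 1, commercial replicate 2 or commercial replicate 3. HIS3 gave no check of the labels, because the disruption used in this strain family removes only part of the gene and where its probes lie was not stated in the labels or files.

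In dried BY4743 all 8 HIS probe sets, and so all 7 HIS genes, were lower than in control BY4743, with log2 changes of -5.50 to -1.94. HIS1 stood apart with a 45.3-fold fall, while the other HIS genes fell 3.84- to 7.97-fold. HIS6, with the smallest of these falls, and HIS2 lay near background in dried cells, which limits the fall they could show. GCN4 fell only 1.45-fold. All 9 member probe sets were called lower, and on all 9 the groups did not overlap. Of all tested probe sets 69.2% were called, 33.0% lower and 36.2% higher, and 74.6% had groups that did not overlap. The median log2 change was -2.56 over the HIS probe sets and 0.04 over all. In RNA from whole cultures, less of a transcript per cell and fewer cells that carry it cannot be told apart.

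HIS1, the ATP phosphoribosyltransferase that commits carbon to histidine, had signals of 104, 70.4 and 94.4 in dried BY4743, against 3985, 3917 and 4109 in control BY4743. The groups were far apart, and the control arrays differed by little among themselves. The log2 change was -5.50 (SE 0.18, adjusted p = 9.38e-08), which ranked 24 from the lowest of 9275.

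HIS4, which carries the pyrophosphohydrolase, cyclohydrolase and histidinol dehydrogenase activities, read 773, 830 and 813 in dried cells, against 3562, 4427 and 6039 in control cells. The dried arrays lay close together and the control arrays scattered more widely, with no overlap. Its log2 change was -2.50 (SE 0.18, adjusted p = 5.26e-06). HIS6, the isomerase that follows, read 68.4, 51.3 and 59.2 in dried cells, against 229, 228 and 225 in control cells. One of the dried arrays, replicate 2, was under its background, so the fall of 1.94 on the log2 scale (SE 0.12, adjusted p = 2.65e-06) rests in part on a signal that could not be told from none.

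HIS7, the glutamine amidotransferase and cyclase that makes imidazole glycerol phosphate, read 232, 110 and 197 in dried cells, against 1281, 840 and 1093 in control cells. Its fall of 2.62 on the log2 scale carried the widest error of the HIS genes (SE 0.31, adjusted p = 0.000111). Replicate 2 was the lowest array for HIS7 in each of the 3 groups, though the replicate numbers did not mark shared deviations over all probe sets.

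HIS3, imidazoleglycerol-phosphate dehydratase, gave signal by both probe sets in the control, in a strain where the gene is disrupted. By the brighter set it read 122, 119 and 146 in dried cells, against 1143, 915 and 1020 in control cells, a log2 change of -2.99 (SE 0.13, adjusted p = 3.60e-07). By the dimmer set it read 43.8, 37.5 and 39.7 in dried cells, under background on every array, against 330, 273 and 282 in control cells. That was at least 5.80-fold lower, against the background of the dried arrays (adjusted p = 2.43e-07 for the fitted change, not the bound). With the dimmer set under background in dried cells, the sizes of the 2 falls could not be compared.

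HIS5, histidinol-phosphate aminotransferase, read 176, 160 and 200 in dried cells, against 1042, 973 and 913 in control cells, a log2 change of -2.45 (SE 0.11, adjusted p = 3.41e-07). HIS2, histidinol-phosphatase, read 68.6, 59.6 and 62.5 in dried cells, against 336, 351 and 392 in control cells, a change of -2.50 (SE 0.11, adjusted p = 3.29e-07). Every dried array lay below every control array for both genes, and the HIS2 signals of dried cells were just above background.

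GCN4 read 3110, 3481 and 3973 in dried BY4743, against 5382, 4976 and 4880 in control BY4743. The groups did not overlap, and the log2 change of -0.53 (SE 0.11, adjusted p = 0.00326) was the smallest of the 9. The log2 changes of the 7 HIS probe sets above background on at least 2 dried arrays were 1.41 to 4.97 lower than that of GCN4, and each difference had an exact two-sided permutation p of 0.1 over arrays (0.1 after Benjamini-Hochberg adjustment over 8 differences), the smallest that 3 arrays against 3 allow. HIS1 likewise fell by 2.51 to 3.56 more on the log2 scale than the other HIS genes (HIS3 by its brighter set), with the same p of 0.1 for each. The values of 1.41 and 3.56 are those of HIS6, whose dried signals lay near background, so its fall may be understated. GCN4 was brighter than 95.8% to 99.5% of the probe sets on each array, and the part of saturation in the size of its change was not tested.

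**Figure D1:**
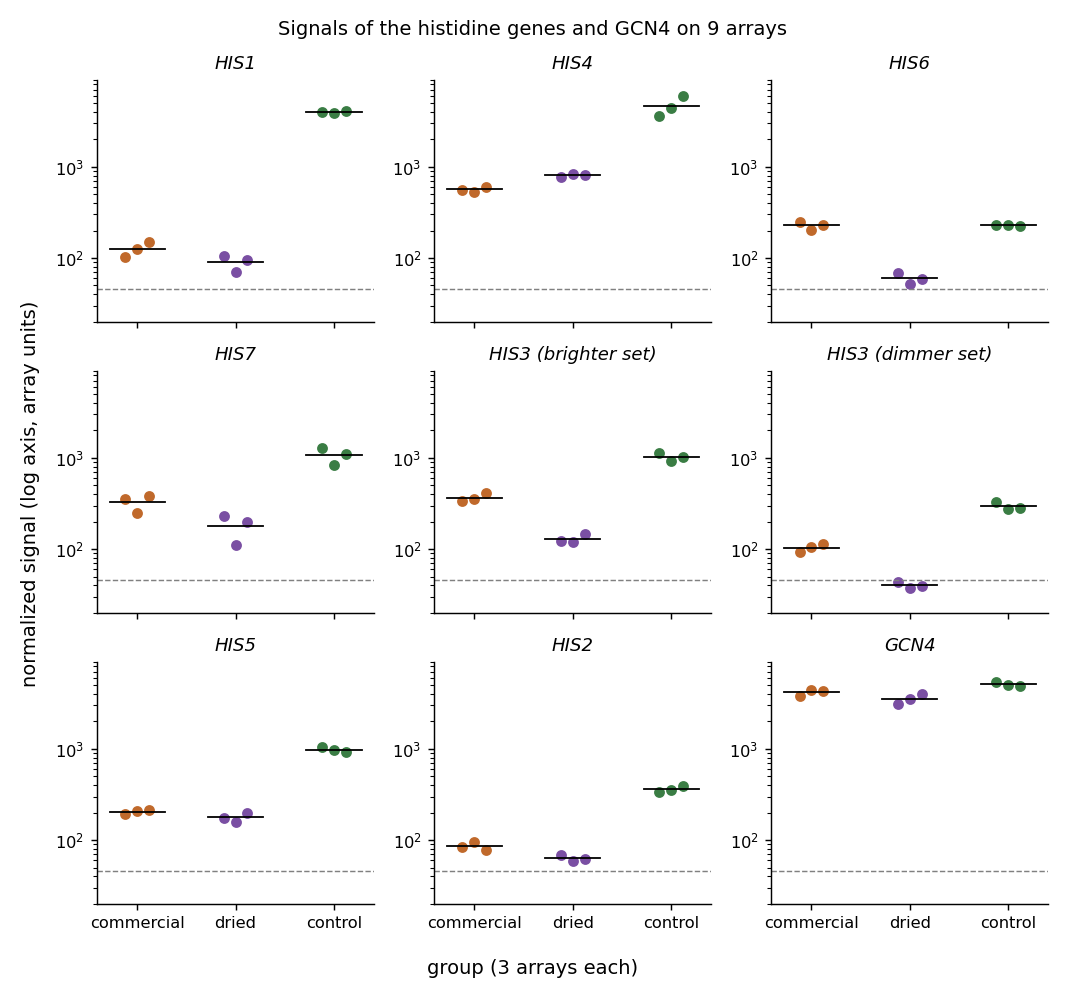
Normalized signal (log axis, array units) of each of the 9 probe sets in commercial dry yeast, dried BY4743 and control BY4743; points are arrays, 3 per group, bars are group means, and the dashed line is the median background of 46.0. HIS1 averages 127 and 89.6 in the dry groups and 4004 in the control, HIS6 is at about the control level in commercial yeast (229 and 228), and GCN4 reads 3110 or more on every array.

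Commercial dry yeast was set against dried BY4743 to compare dry cells of different origin. Strain, culture and drying differ together and cannot be told apart, and the dried arrays are shared with the comparison above. HIS6 and HIS3 were called higher in commercial yeast, by 3.85-fold and, with the brighter set, by 2.84-fold, though neither passed on the spike-in scale given below. The remaining genes lay within 1.89-fold of dried BY4743 in either direction. Of the 9 probe sets 6 were called higher and 1 lower, and on 6 the groups did not overlap. Of all tested probe sets 66.5% were called, 33.1% higher and 33.5% lower, and 72.8% had groups that did not overlap. The median log2 change of the HIS probe sets was 0.71, against 0.00 over all.

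HIS6 had signals of 251, 205 and 231 in commercial yeast, against 68.4, 51.3 and 59.2 in dried BY4743, a log2 change of 1.95 (SE 0.12, adjusted p = 5.12e-06). The dried array at 51.3 was under its background. HIS3 by the brighter set read 335, 350 and 411 in commercial yeast, against 122, 119 and 146 in dried BY4743, a 2.84-fold difference (SE 0.13 on the log2 scale, adjusted p = 2.72e-05). By the dimmer set commercial yeast read 93.0, 105 and 114, at least 2.04-fold above the background of the dried arrays. For both genes each commercial array lay above each dried array. The labels do not say whether commercial yeast carries a HIS3 disruption.

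HIS2 read 83.8, 94.7 and 77.9 in commercial yeast, against 68.6, 59.6 and 62.5 in dried BY4743, and was higher by 0.42 on the log2 scale (SE 0.11, adjusted p = 0.00847). HIS5 read 192, 209 and 214 in commercial yeast, against 176, 160 and 200 in dried BY4743. These arrays overlapped, and the change of 0.20 did not pass (95% interval -0.04 to 0.45, adjusted p = 0.125).

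The calls of HIS1, HIS4 and HIS7 lay near the threshold and were lost when some single arrays were left out. Leaving out a control array changes only the estimate of the spread here, not the change itself. HIS1 read 104, 126 and 151 in commercial yeast, against 104, 70.4 and 94.4 in dried BY4743. The arrays overlapped, and the rise of 0.50 on the log2 scale (SE 0.18, adjusted p = 0.0371) was lost without any 1 control array (adjusted p 0.0532 to 0.0534), without dried replicate 2 or 3 (0.108 and 0.0578) and without commercial replicate 2 or 3 (0.0806 and 0.115). It was also lost when only these 2 groups were fitted (0.0769). HIS7 read 357, 251 and 380 in commercial yeast, against 232, 110 and 197 in dried BY4743, a change of 0.92 (SE 0.31, adjusted p = 0.0295). Without dried replicate 2 it was 0.60 (adjusted p = 0.0684), and without commercial replicate 1 or 3 the adjusted p was 0.0803 and 0.0895. With values as deposited it was 0.86 (adjusted p = 0.0534). HIS4 was the one member called lower. It read 557, 532 and 606 in commercial yeast, against 773, 830 and 813 in dried BY4743, a change of -0.51 (SE 0.18, adjusted p = 0.0335). Its groups did not overlap, but the call was lost without any 1 of the 6 arrays compared (adjusted p 0.0503 to 0.0906). The HIS4 change itself stayed between -0.56 and -0.47.

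GCN4 read 3789, 4447 and 4314 in commercial yeast, against 3110, 3481 and 3973 in dried BY4743. The arrays overlapped, and the log2 change of 0.25 did not pass (95% interval -0.01 to 0.52, adjusted p = 0.0820). Without dried replicate 3 it was 0.34 and passed (adjusted p = 0.0319), as did HIS5 at 0.29 (adjusted p = 0.0446). GCN4 also passed at 0.56 with values as deposited (adjusted p = 0.00353) and at 0.59 with arrays centred on their medians (adjusted p = 0.00849).

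When the spike-in controls set the scale, the median of all probe sets was -1.10 and 13.2% of all calls were higher, in place of 49.7%. With that scaling 0 members were called higher (limma, adjusted p), and HIS4 at -1.86 and HIS5 at -1.07 were called lower. On that scale HIS6 changed by 0.82 (adjusted p = 0.0524) and HIS3 by 0.23 with the brighter set (adjusted p = 0.599), so neither passed, nor did the dimmer set (adjusted p = 0.308).

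**Figure D2:**
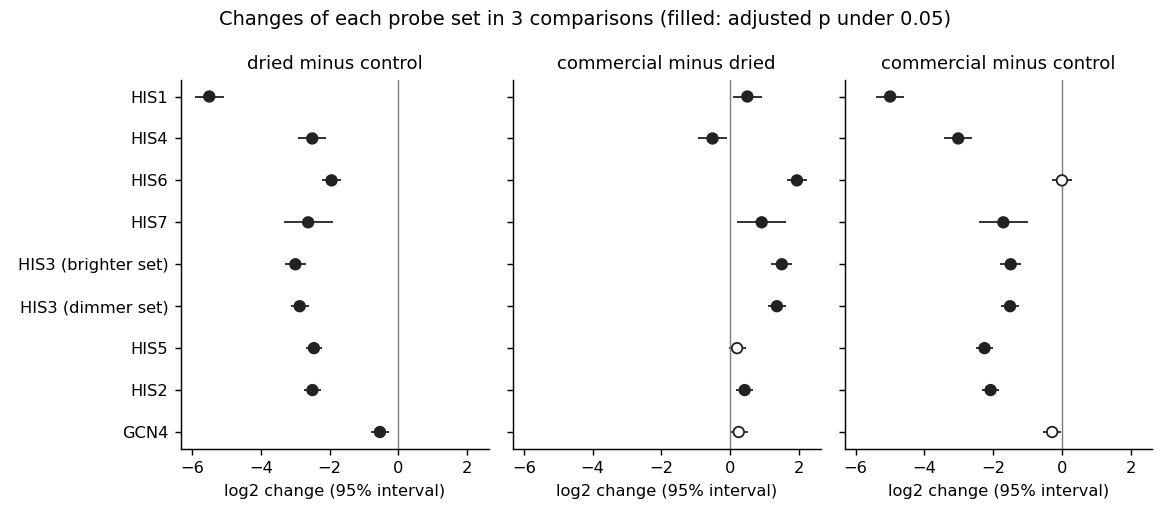
Log2 change of each probe set with its 95% interval in dried minus control BY4743, commercial yeast minus dried BY4743 and commercial yeast minus control BY4743; filled points passed an adjusted p of 0.05. The HIS genes lie left of 0 in both comparisons with the control except HIS6 in commercial yeast. Between the dry groups HIS4 lies left of 0 and the other HIS genes lie right of it, with 0 inside the interval of HIS5.

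Commercial dry yeast was also set against control BY4743, whose arrays are shared with the first comparison. In commercial yeast 6 of the 7 HIS genes were lower than in the growing control, and HIS6 was not. HIS1 was 31.9-fold lower and HIS4 8.09-fold lower. Of the 9 probe sets 7 were called lower and 0 higher by limma, with HIS6 at an unadjusted p of 0.982 and GCN4 at 0.0385, and on 8 the groups did not overlap. Of all tested probe sets 72.5% were called, 37.0% lower and 35.5% higher, and 75.5% had groups that did not overlap. The median log2 change of the HIS probe sets was -1.89, against -0.01 over all. The exception of HIS6 depended on the scaling. With arrays scaled to the spike-ins all 9 member probe sets were called lower, HIS6 at -1.53 (limma, adjusted p = 0.000906). On that scale 6070 of all 9275 tested probe sets were called lower, and the median of all was -1.43.

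HIS1 read 104, 126 and 151 in commercial yeast, against 3985, 3917 and 4109 in control BY4743, a log2 change of -5.00 (SE 0.18, adjusted p = 1.64e-07). It ranked 58 from the lowest of 9275. HIS4 read 557, 532 and 606, against 3562, 4427 and 6039 in the control, a change of -3.02 (SE 0.18, adjusted p = 2.05e-06). For both genes the distance between the groups was many times the spread within them.

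HIS5 changed by -2.25 (SE 0.11, adjusted p = 6.57e-07) and HIS2 by -2.07 (SE 0.11, adjusted p = 1.04e-06). HIS7 changed by -1.70 with the wider error seen before (SE 0.31, adjusted p = 0.00131). HIS3 changed by -1.49 with the brighter set (SE 0.13, adjusted p = 1.93e-05) and by -1.51 with the dimmer set (SE 0.12, adjusted p = 8.81e-06). On these 5 probe sets the arrays of commercial yeast all lay below those of the control.

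HIS6 read 251, 205 and 231 in commercial yeast, against 229, 228 and 225 in control BY4743. The commercial arrays lay on both sides of the control ones, and the log2 change was 0.00 (95% interval -0.28 to 0.29, adjusted p = 0.988). The HIS6 change differed from the HIS1 change by more than that of any other member did. All 8 differences from HIS1 had the same exact two-sided permutation p of 0.1 over arrays, the smallest possible. That p therefore does not test which member lay farthest from HIS1.

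GCN4 read 3789, 4447 and 4314 in commercial yeast, against 5382, 4976 and 4880 in control BY4743. The arrays did not overlap but the log2 change of -0.28 (95% interval -0.54 to -0.02) missed the threshold by little (adjusted p = 0.0529). It passed without dried replicate 1 or 3, whose removal changes only the estimate of the spread (adjusted p = 0.0421 and 0.0376). For 7 of the 8 HIS probe sets the log2 change was 1.21 to 4.72 lower than that of GCN4. Each of these differences had an exact two-sided permutation p of 0.1 over arrays (0.114 after adjustment over 8 differences). For HIS6 the log2 change was 0.29 higher than that of GCN4 (exact two-sided permutation p = 0.2 over arrays).

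**Figure D3:**
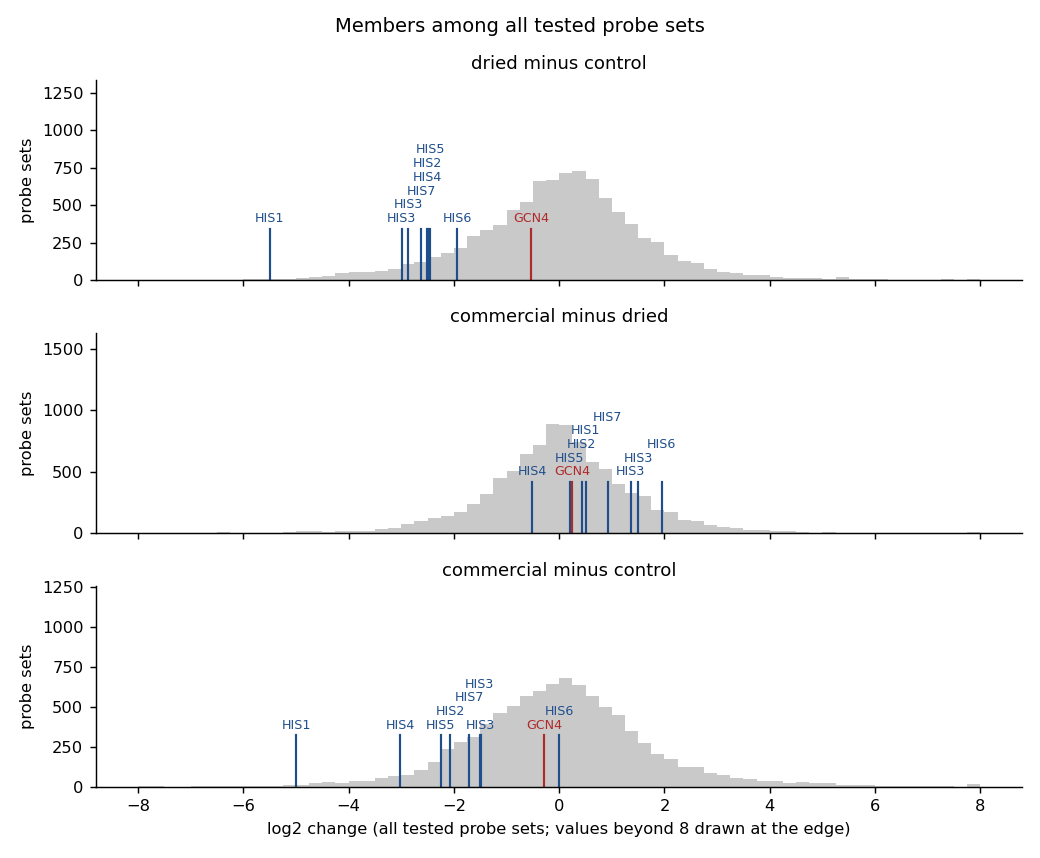
Distribution of the log2 changes of all 9275 tested probe sets (grey, probe sets per bin of log2 change) in the 3 comparisons, with the HIS probe sets in blue and GCN4 in red. In dried minus control BY4743 the HIS genes lie in the lower tail and GCN4 near the middle; HIS6 moves to the middle in commercial yeast minus control BY4743.

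The members differed in how alike their courses over the 9 arrays were, measured as the root mean square difference of their centred log2 signals. HIS5 and HIS2, which act one after the other, differed by 0.18, less than any other pair of different genes among the members. Other consecutive steps differed by 0.34 (HIS7 and the dimmer HIS3 set) to 1.33 (HIS4 and HIS6). HIS1 and GCN4 differed most, by 2.29. The spread within a group, as a coefficient of variation, had a median over the 9 probe sets of 9.94% in commercial yeast, 11.7% in dried BY4743 and 8.18% in control BY4743. It reached 35.1% for HIS7 in dried cells and 26.9% for HIS4 in control cells, and was 0.91% for HIS6 in control cells.

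Outside the pathway, the genes with the courses most like these were drawn from 6054 probe sets by the same measure over 9 arrays. HIS1 was nearest to TEF4, a translation elongation factor subunit (difference 0.30), which read 117 ± 14.8 in commercial yeast, 85.1 ± 7.61 in dried BY4743 and 2901 ± 577 in control BY4743. HIS6 was nearest to RPL14B, of the large ribosomal subunit (0.12, by a probe set with shared probes and so uncertain), and then to ERG1, squalene epoxidase (0.16). HIS3 was nearest to ERG12, mevalonate kinase, by both of its probe sets (0.12 and 0.08, again with shared probes).

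HIS5 was nearest to RPA190, the largest subunit of RNA polymerase I (0.10), and HIS2 to GCS1, which acts in vesicle transport (0.08). HIS4 was nearest to ALE2 (0.21) and then to SRB2, of the Mediator complex (0.23). HIS7 was nearest to RPS28A (0.28, shared probes) and then to HEM12, of heme synthesis (0.28). GCN4 was nearest to KRI1, needed for ribosome assembly (0.09). Genes this near were picked as the smallest of many distances.

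The genes that supply the pathway moved partly with it. Counts in this and the following lists stand beside the shares of all tested probe sets. In dried against control BY4743, 36.2% of all were called higher and 33.0% lower. The shares were 33.1% and 33.5% in commercial yeast against dried BY4743, and 35.5% and 37.0% in commercial yeast against the control. Of the 5 PRS genes, which make PRPP, 4 were lower and 0 higher in dried than in control BY4743, with a median of -1.65 and PRS2 at 0.09 (unadjusted p = 0.342). PRS4 was lowest, with 121 ± 3.18 in dried cells and 1055 ± 103 in control cells, a log2 change of -3.12 (SE 0.10). In commercial yeast against dried BY4743, 4 were higher and 0 lower (median 1.41), led by PRS5 at 2.20. Against the control 2 were higher and 3 lower (median -0.21), with PRS2 at 1.16 and PRS4 at -1.71. On the spike-in scale 0 were called higher and 1 lower than in dried BY4743, and 0 higher than in the control (limma, adjusted p).

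Of 10 measured ADE genes, which act in the purine pathway that takes up AICAR, 9 were lower and 0 higher in dried than in control BY4743, with a median of -2.13. ADE17, which uses AICAR directly, read 318 ± 19.6 in dried cells and 3302 ± 625 in control cells (log2 change -3.36), and ADE6 changed by -3.20. ADE16, the paralog of ADE17, changed by only -0.11 (adjusted p = 0.351). In commercial yeast 5 were higher and 2 lower than in dried BY4743 (median 0.39), with ADE17 at 1.80. Against the control 9 were lower and 1, ADE16, was higher (median -1.74). ADE4, which opens purine synthesis, was under background on all commercial arrays and read 160 ± 26.6 in the control, at least 4.27-fold lower. On the spike-in scale 0 of the 10 were called higher and 5 lower in commercial yeast than in dried BY4743, and 0 higher than in the control (limma, adjusted p). Centring arrays on their medians left 1 lower than in dried BY4743.

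Of 12 genes that control the making of Gcn4 protein, for the Gcn2 kinase and its partners and for the initiation factors it acts on, 10 were lower and 1 higher in dried than in control BY4743 (median -1.52). The one that rose was GCN2 itself, the kinase that senses uncharged transfer RNA, with 332 ± 14.2 in dried cells and 161 ± 7.73 in control cells (log2 change 1.05, SE 0.13, adjusted p = 0.000167). GCN1, which couples Gcn2 to ribosomes, changed by -3.33, by a probe set with shared probes. GCN3, a regulatory subunit of the exchange factor, changed by -2.79, and GCN20, the partner of Gcn1, by -2.54. In commercial yeast against dried BY4743, 6 were higher and 3 lower (median 0.28), with GCN2 at -0.81, and against the control 9 were lower and 0 higher (median -1.21), with GCN2 at 0.24 (unadjusted p = 0.111). On the spike-in scale 0 were called higher in dried than in control BY4743, so the GCN2 call was lost, and 0 were called higher and 6 lower in commercial yeast than in dried BY4743 (limma, adjusted p). Against the control, 1 was called higher in commercial yeast under 6 alternatives.

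Among 9 activators, co-activators and turnover factors, 5 were higher and 3 lower in dried than in control BY4743 (median 0.53). Of all tested probe sets 69.2% were called in that comparison. PHO2 and BAS1, whose products act together on HIS and ADE genes, rose by 2.09 (SE 0.09) and 1.41 (SE 0.16). PHO2 read 550 ± 33.3 in dried cells and 129 ± 8.23 in control cells. PCL5, the cyclin that directs Gcn4 to degradation and is itself a Gcn4 target, read 496 ± 8.80 in dried cells and 2394 ± 55.1 in control cells, a change of -2.27 (SE 0.14). Against the control, commercial yeast had PHO2 and BAS1 higher by 1.19 and 1.05 and PCL5 lower at -1.78, within 6 higher and 2 lower (median 0.52). Between commercial yeast and dried BY4743, 3 were higher and 3 lower (median -0.18). When the spike-in controls set the scale, 2 of the 9 were called higher and 1 lower in dried than in control cells. Commercial yeast then had 0 higher and 7 lower against dried BY4743, and likewise 0 higher and 7 lower against the control (limma, adjusted p). With values as deposited, 1 in place of 3 was called lower in dried than in control BY4743. In commercial yeast against the control it was 1 in place of 2.

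Histidine is charged to its transfer RNA by HTS1 and taken up by the permeases HIP1, GAP1 and AGP1. HTS1 read 102 ± 9.12 in dried BY4743 and 1635 ± 173 in control BY4743, a log2 change of -4.00 (SE 0.12), and HIP1, the high-affinity histidine permease, changed by -3.09 (SE 0.13). GAP1, the general amino acid permease of nitrogen-poor cells, rose by 3.33 (SE 0.08), while AGP1 changed by 0.02 (adjusted p = 0.906). In commercial yeast AGP1 read 173 ± 25.4, against 2945 ± 146 in dried BY4743, a change of -4.10. HTS1 was 1.21 higher in commercial yeast than in dried BY4743 and -2.79 against the control. In all 1, 2 and 1 of these 4 genes were higher, and 2, 2 and 3 lower, in dried against control, commercial against dried and commercial against control cells, with medians of -1.53, -0.06 and -2.72. In commercial against dried cells, 0 were called higher on the spike-in scale, 1 was higher without dried replicate 2 or commercial replicate 2, and 1 was lower with values as deposited or centred.

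Of 26 measured genes of other amino acid pathways that are known Gcn4 targets, 19 were lower and 3 higher in dried than in control BY4743, with a median log2 change of -1.51. ASN1, asparagine synthetase, changed by -5.51, ARO4, of aromatic amino acid synthesis, by -4.21, and HOM3, aspartate kinase, was at least 18.0-fold lower, being under background on all dried arrays. ARG3, of arginine synthesis, went the other way. It read 518 ± 55.1 in dried cells and 34.4 ± 2.08 in control cells, where only 1 array was above background, a change of 3.91 (SE 0.10). In commercial yeast 10 of the 26 were higher and 9 lower than in dried BY4743 (median 0.01), beside 33.1% and 33.5% of all tested probe sets. HOM3 was at least 8.41-fold higher and LYS1 changed by -2.07. Against the control 22 were lower and 2 higher (median -1.26), led by ASN1 at -6.46. In dried against control BY4743, 1 in place of 3 was called higher with arrays centred on their medians and on the spike-in scale. On the spike-in scale commercial yeast had 1 higher and 17 lower than dried BY4743, and 1 higher than the control.

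**Figure D4:**
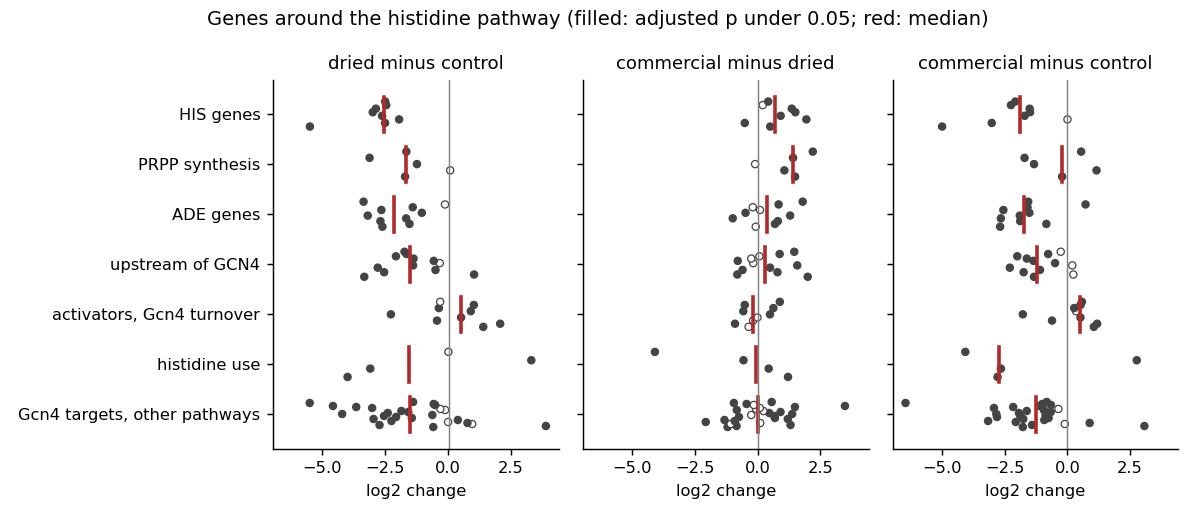
Log2 changes of the HIS probe sets and of the genes around the pathway in dried minus control BY4743, commercial yeast minus dried BY4743 and commercial yeast minus control BY4743. Each point is 1 gene, except that HIS3 is drawn with both of its probe sets. Filled points passed an adjusted p of 0.05, red bars are medians and the grey line is the median of all probe sets. The HIS probe sets have the lowest median of these lists in dried minus control BY4743 (-2.56), and the activators and turnover factors the highest (0.53).

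RNA quality differed along with these changes. For ACT1, actin, the 3' signal minus the 5' signal on the log2 scale came to 0.42 ± 0.10 in commercial yeast, 1.40 ± 0.17 in dried BY4743 and -0.40 ± 0.27 in control BY4743. The other two genes with such probe sets placed commercial yeast highest. SPT15, the TATA-binding protein, gave 1.99 ± 0.11 in commercial yeast, 1.63 ± 0.11 in dried BY4743 and 1.31 ± 0.09 in control BY4743. SRB4, of the Mediator complex, gave 2.32 to 3.08 over the arrays of commercial yeast, 1.38 to 1.53 in dried BY4743 and 0.89 to 1.38 in control BY4743. The part of RNA quality in the levels of the HIS genes was not tested.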

How the data were processed

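The authors hybridised cRNA to 1-colour arrays, read the images with the manufacturer's software and applied signed rank statistics and mixed modelling, per the labels' protocols. The file the authors deposited gives each probe set a linear intensity on every array. Their mean after trimming 2% at each end was 500.2 to 500.3 on every array, so a common scaling was applied. Whether the mixed model shaped these values was not tested, and no source used here gives a software version.

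Signals under 1 were raised to 1, log2 was taken and quantile normalization was done with limma 3.58.1 (R 4.3.3), which hides any shift common to all transcripts. The 60 control probe sets were left out and the remaining 9275 tested. A model with 3 group means over the 9 arrays was fitted with lmFit and eBayes (two-sided), with p-values adjusted by Benjamini-Hochberg within each of 3 comparisons. The number of arrays limits the precision. The procedure was tested on simulated data.

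Background is the 95th percentile of 28 control probe sets without a target, per array. Where a probe set lay under it on all arrays of 1 group, the fold is a bound, with the dim arrays set to their background or their own signal, whichever is higher. Names come from the platform annotation, with symbols updated through RefSeq assembly R64; 6504 named 1 gene, 328 several and 2503 none. ADE5,7 and ARG5,6 were not analysed here. A listed gene is represented by its brightest probe set. Named genes are the members, up to 3 per list and comparison with the largest called change and no overlap, the marker loci, and the 2 genes nearest to each member, of which not all are named; ADE16, GCN2 and some further comparisons of these genes were also named after their values were seen. The members and lists were chosen with earlier results of these data known. Groups and replicate numbers come from the sample titles. Deviations of same-numbered arrays correlated at -0.04 to 0.04, so the numbers were not taken as pairs.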

Additional observations from a re-analysis of the deposited data

How the results depend on the processing

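Each result was recomputed under 19 alternatives: 9 that leave out 1 array, and 10 of normalization, offset, floor, filters, prior, samples and pairing. All 9 falls in dried against control BY4743 kept their direction and call under every one, HIS1 between -5.87 and -4.87 and GCN4 between -0.98 and -0.45. So did the 7 falls called in commercial yeast against the control. HIS6 there had no settled sign. It was -0.0274 with arrays centred on their medians, and -1.53 with spike-in scaling, where it was called lower (limma, adjusted p = 0.000906). When 1 array was left out it was -0.0651 to 0.0795, below 0 without control replicate 3 and without commercial replicate 1 or 3. GCN4 there passed under 7 alternatives and was -1.66 with spike-in scaling and -0.0045 with values as deposited.

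In commercial yeast against dried BY4743, spike-in scaling gave 0 members called higher and 2 lower in place of 6 and 1, and turned the sign of HIS5 (-1.07), HIS2 (-0.57), HIS1 (-0.64), GCN4 (-0.68) and HIS7 (-0.38). Centring arrays on their medians left 0 members lower, and leaving out 1 array gave 0 to 1 lower. The cause was not tested. The median over all probe sets was 0.04, 0.00 and -0.01 in dried against control, commercial against dried and commercial against control. It moved by more than 0.1 to 0.13 in commercial against dried and 0.22 in commercial against control with values as deposited, to 0.16 in commercial against dried with centred arrays, to -0.29, -1.10 and -1.43 with spike-ins and to 0.31, -0.24 and -0.14 with the floor at background. Higher calls then made up 37.2%, 13.2% and 11.8% of all calls with spike-ins, in place of 52.3%, 49.7% and 49.0%, and 38.4% in commercial against dried with the floor.

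With the replicate number as a block, the HIS1 call in commercial against dried BY4743 was lost (adjusted p = 0.0501) and no other member's call changed, with 6015 in place of 6170 probe sets called there, 6330 in place of 6421 in dried against control and 6618 in place of 6727 in commercial against control. Of the counts of called genes in the lists around the pathway, 758 stayed within 1.5 times under an alternative and 40 moved further. Signals near background, as of HIS6, HIS2 and the dimmer HIS3 set in dried cells, limit how low a fall can be measured.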
